A study of Homo sapiens with 8 samples.

Results

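The oligonucleotides described here are different microarray probes designed to the same messenger RNA. A probe was included when it was no control probe, when its annotated name was a RefSeq mRNA accession (NM_) that at least 1 other probe of a different name carried, and when it and that other probe were each well above background in all 8 channels. These conditions gave 6988 probes on 3108 transcripts, out of 41000 probes on the array and 21089 that were detected in all 8 channels. Detection therefore chose the members, and a probe whose IP or total signal sank into the background is not among them. Of the 5571 NM_ transcripts with 2 or more probes on the array, a further 1162 had exactly 1 detected probe and 1301 had none, so probe agreement could not be given for them. Most members came in pairs, with 2539 transcripts of 2 probes, 432 of 3 and 137 of 4 or more, up to 10 probes on 1 transcript. All detected probes were kept for each transcript, and 2880 of the 3108 had every probe on the array detected.

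The study looked for transcripts bound by miR-155 in B-cell lymphoma. L1236 is a Hodgkin lymphoma cell line in which endogenous miR-155 is high. It was transduced either with the empty retroviral vector pMSCV-PIG (EV) or with the same vector carrying a miR-155 sponge, an RNA whose repeated binding sites compete for the microRNA, and GFP-positive cells were sorted from each. Total RNA (T) and RNA precipitated with an antibody against Argonaute 2 (Ago2-IP, or IP) were taken from each cell population, which gave 4 groups of 1 RNA sample each, the T and the IP of EV cells and the T and the IP of sponge cells. Each RNA was measured in both dyes, Cy3 and Cy5, and each array carried IP and T from the same cells, so 4 two-colour arrays gave the 8 channels. The cells are bulk transduced populations of 1 line, and fewer cells carrying a transcript cannot be told apart from less RNA per cell.

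Argonaute 2 holds a microRNA and uses it as a guide to partly complementary sites, most often in the 3′ part of an mRNA. An mRNA that carries such sites is pulled down with the protein and has a higher share in the IP than in the total RNA. A gene can yield several mRNA forms that differ in their ends or exons, and a probe reports every RNA that holds its target stretch, so that probes on a common transcript need not read the same mixture of forms. The study's gene set analysis took, for a gene with several probes, the probe with the highest IP enrichment. The agreement of probes on a transcript bears on how much such a choice matters. The microRNA that the sponge was built to bind is shown because its seed, in capitals, is the part that pairs with target mRNAs. It is given from RefSeq (GRCh38.p14, chr21:25573983-25574006, + strand).
hsa-miR-155-5p: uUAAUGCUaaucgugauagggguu

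IP/T divides the IP signal by the T signal of the same cells, and all values below are on the log2 scale unless they are named as folds or percentages. A probe was called enriched at an IP/T of 2-fold or more and depleted at an IP/T lower by 2-fold or more. The change in IP/T subtracts the EV value from that of sponge cells. The range of a transcript is its highest minus its lowest probe, so that a range of 2 is a 4-fold disagreement. Each ± is the SD over the 2 dye orientations, or over the 2 dyes for T or IP alone. For a median range or an r it is the SD of the figures from each orientation or dye alone. The figure printed before it comes from averaged dyes and can lie outside both. Dyes and orientations are technical measurements of 1 RNA sample, so no difference below was tested and none has a p-value. Signals of different probes are given side by side as readings only, since the level of 1 probe cannot be set against that of another.

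The arrays were of similar quality except that sponge T in Cy5 had fewer spots well above background (54.1%) than the remaining channels (61.0% to 65.7%). No spot was saturated. Spots of the same probe agreed closely, with a median SD between the 10 spots of a replicated probe of 0.0645 to 0.114 per channel. Of 16 genes known from Hodgkin and B-lineage cells, 13 had a probe detected in every T channel, among them TNFRSF8 (CD30), CCL17 and the miR-155 host gene MIR155HG, while MS4A1 and SPI1 were detected in no T channel. Of 6 genes of other cell types, CD3E and CD14 had a detected probe and CD3D, CD68, EPCAM and HBB had none.

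Different probes on a transcript mostly gave like values of IP/T. In EV cells the median range within a transcript was 0.342 ± 0.0257, and 1953 transcripts (62.8%) had all probes within 0.5. Across the 4979 pairs of probes on the same transcript, Pearson's r of EV IP/T was 0.812 ± 0.0097, a description across probes that share arrays and RNA. The SD of probes within a transcript was 0.481 and the SD between transcripts 1.01. In sponge cells the median range was 0.339 ± 0.0548, 1960 transcripts (63.1%) had all probes within 0.5 and the pairwise r was 0.797 ± 0.0248. The SD over dye orientations of a member probe was 0.251 in EV and 0.336 in sponge cells (root mean square), so the spread between probes of a transcript was larger than the labelling error in both.

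The differences between probes recurred on separate arrays. In the 2539 transcripts with 2 probes, the difference of probe 1 minus probe 2 in EV IP/T correlated between the 2 dye orientations with r = 0.815, and in sponge IP/T with r = 0.752. Set against each other, EV and sponge differences of the same pairs, averaged over both orientations, gave r = 0.938. The r of 0.815 and 0.752 are of single orientations, so they are not directly comparable with it. The pairs of the EV and sponge comparison share their probes, and the arrays of EV and sponge cells do not share RNA.

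Correlation between probes was much lower for the change between cell populations, while in log2 units the values lay closer. For the change in IP/T, 2929 transcripts (94.2%) had all probes within 0.5. The median range within a transcript in the change in IP/T was 0.172 ± 0.0324 and the pairwise r was 0.366 ± 0.0037. For the change in T alone r was 0.318 ± 0.018, and for the change in IP alone 0.527 ± 0.0511. Within a transcript the SD of the change in IP/T was 0.169, above the SD of 0.126 between transcripts. The dye SD was 0.212, but it is that of a single orientation, whereas the 0.169 is of values averaged over both. The 0.169 and the 0.212 are therefore not directly comparable. Differences between the 2 probes of a pair in the change in IP/T barely recurred between orientations, with r = 0.236, against r = 0.815 for EV IP/T. No member probe had a change in IP/T of 2-fold, while among all 21089 detected probes 1 (0.00474%) was higher and 6 (0.0285%) were lower by that much in sponge cells.

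Among member probes 1269 (18.2%) were enriched and 1183 (16.9%) depleted in EV cells, against 15.4% and 21.1% of all detected probes. In sponge cells 1285 (18.4%) were enriched and 1034 (14.8%) depleted, against 15.2% and 20.2%. By transcript, every probe was enriched in EV cells for 382 transcripts (12.3%) and some but not all probes for 380 (12.2%). The mean of the probes was enriched in 535 (17.2%), so that a transcript's call ranged from 382 to 762 transcripts (24.5%) between asking for all probes and asking for any. In 93 of the 380 split transcripts the probes lay within 1.5-fold of each other on either side of the threshold. Every probe was depleted in 352 transcripts (11.3%). In sponge cells all probes were enriched in 367 (11.8%) and some in 416 (13.4%). Of the 382 transcripts enriched by all probes in EV cells, 336 (88.0%) were so in sponge cells, and of the 380 split transcripts 314 (82.6%) stayed split.

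Number of probes, probe series and brightness were set beside the ranges. The median range in EV IP/T was 0.286 for 2 probes, 0.554 for 3 and 0.669 for 4 or more, as a range grows with the number of values, while the SD within a transcript was 0.489, 0.484 and 0.430. Of 4 groups of 777 transcripts by mean signal, the dimmest had a median range of 0.366 and the brightest 0.341, with 19 and 13 transcripts 4-fold or more apart. In the change in IP/T the same groups had median ranges of 0.209 and 0.133, beside median dye SDs of 0.171 and 0.0942. Probe names beginning A_23, A_24 and A_32 mark the array's probe series. Of 1563 pairs of an A_23 and an A_24 probe, the A_24 probe had the higher EV IP/T in 723 (46.3%), with a median difference of -0.04 ± 0.01.

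Probes annotated to the same gene but to different NM_ transcripts agreed less. Over 486 such pairs in 270 genes the median difference in EV IP/T was 0.460, against 0.291 for the 4979 pairs on the same transcript. The pairwise r was 0.595 against 0.812, and 29 of the 486 pairs (5.97%) were 4-fold or more apart against 78 (1.57%). In the change in IP/T r was 0.176 against 0.366. Genes with several accessions and transcripts with several probes are different sets, and no test of this difference was made.

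The probes of 66 transcripts (2.12%) were 4-fold or more apart in EV IP/T, and those of 72 (2.32%) were so in sponge IP/T. Both sets held 52 transcripts, 78.8% of the EV set and 72.2% of the sponge set. The 66 were chosen by their EV values, so only the sponge arrays give a separate reading. Sponge signals took part in the choice through detection in all 8 channels and the joint normalisation. There the probe that was highest in EV cells was again above the probe that was lowest in 66 of 66, by a median of 2.41 (1.43 to 5.34), and the difference was still 4-fold or more in 51. The lower of the 2 orientation values of the former lay above the higher of the 2 values of the latter in sponge cells in 66 of 66, against 49.9% of all 3108 transcripts. In EV cells, which chose them, the figures were 66 of 66 and 60.8%. The 66 had a median EV range of 2.37 and all transcripts one of 0.342, so these shares compare sets of unlike range. With normexp background correction the 66 became 42 and the 72 became 46, and when detection in 4 of 8 channels was enough they became 116 and 152.

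In 49 of the 66 the highest probe was enriched and in 32 the lowest was depleted. In 29 an enriched probe stood beside one that was neither enriched nor depleted, in 16 a depleted probe did, and in 5 both extremes were enriched. In 15 transcripts 1 probe was enriched and another depleted. Of the 66, 45 had 2 probes and 21 had more. Where there were more, the widest gap set a single low probe apart in 10 and a single high probe apart in 9. In ANKRD11, a chromatin regulator, and in BOD1L1 2 probes lay on each side of the gap. These 2 were named after their values were seen. Probe sequences were not used here, so whether a disagreeing probe also reads RNA of another gene was not tested for any of the 66.

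PKN2, a serine/threonine protein kinase, had the widest range, 5.39. Probe A_23_P23227 read 10.04 in EV T, 13.83 in EV IP, 10.19 in sponge T and 13.63 in sponge IP. Probe A_32_P226918 read 17.96, 16.35, 18.07 and 16.17 in the same order. The former was far higher in both IP samples than in both T samples and the latter lower, with IP/T of 3.79 ± 0.11 in EV and 3.44 ± 0.08 in sponge cells against -1.61 ± 0.37 and -1.89 ± 0.39, and no orientation overlapped. The 2 probes nevertheless gave nearly the same change in IP/T, -0.35 ± 0.02 and -0.29 ± 0.02.

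TUSC2, a candidate tumour suppressor, had a range of 4.98. Its probe A_23_P251562 read 12.84 in EV T, 16.95 in EV IP, 12.83 in sponge T and 16.49 in sponge IP, and A_24_P165965 read 12.97, 12.10, 13.18 and 12.13. IP/T in EV cells was 4.10 ± 0.24 by the first and -0.88 ± 0.19 by the second. The first probe was lower in sponge IP than in EV IP by 0.46 ± 0.07, whereas the IP change of the second was 0.04 ± 0.21.

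SIK1, a kinase induced by cyclic AMP signalling, had 3 probes and a range of 4.94. A_23_P132115 read 7.45 in EV T, 10.34 in EV IP, 7.72 in sponge T and 10.45 in sponge IP. A_23_P132121 read 9.28, 11.86, 9.37 and 11.87, and A_24_P237231 read 15.65, 13.60, 15.67 and 13.46. EV IP/T was thus 2.89 ± 0.05 and 2.58 ± 0.21 by 2 probes and -2.05 ± 0.48 by the remaining one, and sponge IP/T was 2.73 ± 0.17, 2.50 ± 0.34 and -2.20 ± 0.63. None of the 3 probes moved between cell populations by more than 0.16 in IP/T.

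IER5, an immediate early response gene and a member of the list of miR-155 targets that the study drew up in ST486 cells, had a range of 4.89. A_23_P86330 read 14.04 in EV T, 15.78 in EV IP, 13.98 in sponge T and 15.48 in sponge IP, and A_24_P379223 read 15.31, 12.15, 15.47 and 12.05. The transcript was enriched by the first probe, with EV IP/T of 1.73 ± 0.20, and depleted by the second, with -3.16 ± 0.17. Both IP/T values were lower in sponge cells, by changes of -0.24 ± 0.00 and -0.26 ± 0.13.

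BBC3 encodes PUMA, a BH3-only protein that promotes apoptosis, and CASP8 encodes caspase-8, the initiator protease of death receptor signalling. The 3 BBC3 probes had EV IP/T of 1.57 ± 0.06 (A_23_P382775), 0.03 ± 0.19 (A_24_P305312) and -2.44 ± 0.27 (A_23_P90189), and sponge IP/T of 1.33 ± 0.02, -0.15 ± 0.14 and -2.90 ± 0.40. The lowest of them read 17.71 in EV T, 15.27 in EV IP, 17.96 in sponge T and 15.05 in sponge IP. For CASP8, A_24_P157087 read 8.14 in EV T, 12.17 in EV IP, 8.14 in sponge T and 12.15 in sponge IP, while A_23_P209389 read between 12.37 and 12.52 in all 4. CASP8 was therefore strongly enriched by the former, 4.03 ± 0.17 in EV and 4.01 ± 0.14 in sponge cells, and level by the latter, 0.12 ± 0.18 and 0.01 ± 0.25.

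RAB18, a small GTPase of lipid droplets and the endoplasmic reticulum, gave 2.56 ± 0.17 by A_24_P132787 and -1.33 ± 0.39 by A_23_P138376 in EV cells. ATG5, which is needed to form autophagosomes, gave 2.54 ± 0.10 by A_24_P175059 and -0.88 ± 0.07 by A_23_P111381. The lipid kinase gene PIP5K1C gave 0.98 ± 0.00 and -2.47 ± 0.46, and the signalling adaptor SLA gave 1.77 ± 0.54 and -1.50 ± 0.29. In sponge cells the 4 transcripts were 3.76, 3.54, 3.61 and 2.94 apart, with the same probe on top in each.

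Further wide ranges in EV cells were those of CMIP (3.65), EIF1AD (3.23), MEX3D (3.22), TUBA3D (3.08) and TRIM35 (3.07). CMIP, MEX3D and TRIM35 had no enriched probe: their probes lay between level and depleted, as in TRIM35, a ubiquitin ligase gene, at -0.48 ± 0.47 and -3.55 ± 0.38. EIF1AD had an enriched probe at 1.97 ± 0.21 and a depleted one at -1.26 ± 0.18. The 2 TUBA3D probes, at 0.68 ± 0.26 and -2.40 ± 0.64, are uncertain, since alpha-tubulin genes are near-identical and a probe may read several of them.

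The other transcripts with an enriched and a depleted probe in EV cells were named after their values were seen. They were DCAF10 (1.97 ± 0.16 against -1.08 ± 0.31, with another probe at 0.83 ± 0.20), SLC6A6, E2F2, ST13, BOD1L1, RFX1, AHNAK and TUBA4A. E2F2, a transcription factor of cell cycle entry, gave 1.62 ± 0.21 by A_23_P408955 and -1.09 ± 0.11 by A_23_P125990. ST13, a co-chaperone, had 7 probes, of which 6 lay between -1.40 and -0.63 and A_24_P100266 alone at 1.22 ± 0.32. ST13 has near-identical copies in the genome and TUBA4A is an alpha-tubulin gene, so the probes of both are uncertain.

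Just inside the 4-fold line were MORF4L1, with a range of 2.003, and DTWD1, with 2.001. Just outside were JPT1 at 1.984 and CAVIN3 at 1.983. MORF4L1, a subunit of histone acetyltransferase complexes, gave 2.90 ± 0.01, 0.96 ± 0.01 and 0.90 ± 0.17 by its 3 probes, and JPT1 gave 1.84 ± 0.03 and -0.14 ± 0.31. CAVIN3 had dye SDs of 1.16 and 0.75 on its 2 probes.

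At the other end were transcripts whose probes agreed on strong enrichment. VAMP3, a vesicle SNARE of recycling endosomes, had the highest mean EV IP/T of transcripts with a range of at most 0.5. A_23_P97532 read 8.93 in EV T, 13.58 in EV IP, 8.83 in sponge T and 13.30 in sponge IP, and A_24_P370887 read 10.36, 14.70, 10.23 and 14.45. All IP readings were far above the T readings, with EV IP/T of 4.65 ± 0.16 and 4.34 ± 0.21 and sponge IP/T of 4.46 ± 0.39 and 4.22 ± 0.01. The 2 probes also gave like changes in IP, -0.28 ± 0.03 and -0.25 ± 0.01.

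FNDC3B followed with 4.14 ± 0.19 and 3.73 ± 0.44, the zinc finger gene ZNF626 with 3.72 ± 0.14 and 3.35 ± 0.15, and PCMTD1 with 3.51 ± 0.43 and 3.48 ± 0.26. The phosphoinositide-binding adaptor PLEKHA1 gave 3.49 ± 0.05 and 3.33 ± 0.16, and DUSP2, a phosphatase of MAP kinases and an immediate early gene, 3.50 ± 0.02 and 3.30 ± 0.01. Among these, both ZNF626 probes were lower in sponge cells by the same amount, with changes in IP/T of -0.33 ± 0.01 and -0.35 ± 0.07. Both PCMTD1 probes were higher, by 0.23 ± 0.26 and 0.22 ± 0.24, which is within their dye spread.

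Agreement on depletion was seen for CYP4F2, a fatty acid hydroxylase, at -3.43 ± 0.25 and -3.89 ± 0.11, and for SOX3, a transcription factor of neural progenitors, at -2.60 ± 0.36 and -3.01 ± 1.32. FUOM, a fucose mutarotase, gave -2.08 ± 0.01 and -2.27 ± 0.01, and RNASEH2C, a subunit of ribonuclease H2, -2.07 ± 0.02 and -2.23 ± 0.20. The lower CYP4F2 probe was read differently by the dyes in sponge T, 8.30 in Cy3 and 11.10 in Cy5.

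The transcripts with the most detected probes were those of RPL21, HNRNPA1L2 and HNRNPA3, which belong to families with many near-identical copies, so a probe may read several of them. The 10 RPL21 probes, on a component of the large ribosomal subunit, lay between -1.82 and -0.81 in EV IP/T and all had a higher IP/T in sponge cells, by 0.06 to 0.39. The 10 HNRNPA1L2 probes lay between 0.13 and 1.94, with 8 of them at 1.22 or more, and the 8 HNRNPA3 probes between -0.47 and 0.49. HNRNP genes encode proteins that bind nascent transcripts and take part in splicing. The spread among these probes was 1.00, 1.81 and 0.96 in EV IP/T, and 0.33, 0.27 and 0.28 in the change in IP/T.

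Only 2 transcripts (0.0644%) had probes 2-fold or more apart in the change in IP/T, and neither was 4-fold apart in EV or sponge IP/T. ISCA1, a factor for mitochondrial iron-sulfur clusters, had 4 probes, of which A_24_P387609 read 7.56 in EV T, 8.24 in EV IP, 6.67 in sponge T and 8.34 in sponge IP. Its T was lower in sponge cells by 0.94 in Cy3 and 0.84 in Cy5, and its change in IP/T was 0.99 ± 0.05. A_23_P216766 gave 0.55 ± 0.15, and the other 2 probes gave -0.03 ± 0.03 and -0.15 ± 0.21. The ISCA1 probes thus split into 2 with a higher and 2 with a nearly level IP/T. ISCA1 was named for this range, and no separate arrays read it. With normexp, 0 transcripts were 2-fold apart in the change in IP/T.

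TONSL, a DNA repair factor at replication forks, gave 0.71 ± 0.13 by A_23_P216355 and -0.30 ± 0.49 by A_24_P1054. The next widest ranges in the change in IP/T were those of APOC1 (0.99), WNT6 (0.98) and PTK2 (0.95), each with a dye SD of 0.49 or more on 1 of its probes. In T alone the widest ranges were 1.53 for the transcript NM_145809, which received no symbol, 1.34 for AGAP4 and 1.25 for ISCA1. In IP alone they were 1.74 for CAVIN1, 1.36 for APOC1 and 1.29 for XAB2.

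Several of these rested on 1 dye reading. Probe A_23_P141376 of CAVIN1, a coat protein of caveolae, was higher in sponge IP by 3.12 in Cy5 and by 0.26 in Cy3. For A_23_P4649 of APOC1, an apolipoprotein, the same differences were 2.88 and 0.07. AGAP4 probe A_23_P138394 was lower in sponge T by 1.99 in Cy5 and 0.18 in Cy3, whereas its other 4 probes gave T changes of -0.15 to 0.26. The second probe of CAVIN1, A_23_P394064, had an IP change of -0.05 ± 0.15, and that of APOC1, A_24_P109214, one of 0.12 ± 0.45.

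T differed by 0.5 or more in the same direction in every probe of 10 transcripts, 6 higher (0.193%) and 4 lower (0.129%) in sponge cells. H2AC18, a histone H2A gene with near-identical copies, had T changes of 1.01 ± 0.17 and 0.70 ± 0.09. MAP3K6, a stress-activated kinase, had 0.99 ± 0.62 and 0.55 ± 0.09, and APOC1 had 1.00 ± 0.73 and 0.63 ± 0.19. CD48, a surface glycoprotein of lymphocytes, read 10.99 in EV T and 10.15 in sponge T by A_23_P74145 and 9.20 and 8.04 by A_32_P175934, changes of -0.84 ± 0.20 and -1.16 ± 0.47. LAPTM5, a lysosomal protein of blood cells, had -0.54 ± 0.19 and -0.62 ± 0.17, and HLA-DPB1, an MHC class II chain, -0.60 ± 0.04 and -0.54 ± 0.16. All probes of the last 3 were also lower in sponge IP, by 0.17 to 0.70.

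Of the 54 genes that the study had picked as miR-155 targets in ST486, a Burkitt lymphoma line with forced miR-155 expression, 17 had several detected probes on a transcript. Every probe was enriched in EV cells in 12 of the 17, beside 12.3% of all member transcripts, and some probes in 2, IER5 and LIN9. The transcripts' means had a median of 1.84 in EV cells and of 1.68 in sponge cells. The median range was 0.460. Probes were 2-fold or more apart in 3, IER5, LIN9 and KLHL5, beside 13.9% of all. In 13 of the 17 the change in IP/T was below 0 in every probe, beside 23.8% of all, and in 1, PSIP1, it was above 0 in every probe, beside 36.6%. The median change was -0.16 against 0.03 over all 3108, and it was below 0 under both scaling alternatives. The list's EV median of 1.84 lay above the -0.07 of all transcripts, so these shares are not matched for enrichment. Whether the change goes with enrichment or with the list was not tested.

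Within this list PICALM, an adaptor of clathrin-mediated endocytosis, gave 2.88 ± 0.03 and 2.83 ± 0.40. TBC1D14 gave 1.09 ± 0.01, 1.16 ± 0.07 and 1.08 ± 0.04, and ARRDC2 gave 1.94 ± 0.08 and 1.86 ± 0.11. All 3 TBC1D14 probes were lower in sponge IP, by 0.52 ± 0.12, 0.40 ± 0.06 and 0.43 ± 0.11, and also in sponge T, by 0.19 ± 0.00, 0.22 ± 0.06 and 0.38 ± 0.30. Their changes in IP/T were -0.33 ± 0.12, -0.19 ± 0.11 and -0.06 ± 0.18. LIN9, a subunit of the DREAM complex, gave 1.87 ± 0.13 and 0.57 ± 0.08 with changes of -0.18 ± 0.20 and -0.16 ± 0.06. KLHL5 gave 2.41 ± 0.15, 1.68 ± 0.23 and 1.18 ± 0.28, and its changes of -0.38 ± 0.08, -0.03 ± 0.12 and 0.24 ± 0.18 ran in different directions.

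HOMEZ and PSIP1 were the members among the 6 genes that the study followed further. The HOMEZ probe A_23_P76829 read 10.44 in EV T, 12.76 in EV IP, 10.56 in sponge T and 12.50 in sponge IP, and A_24_P40594 read 10.00, 11.59, 9.88 and 11.28. Both were enriched in EV cells, at 2.32 ± 0.01 and 1.59 ± 0.21, and lower in sponge cells, by changes of -0.37 ± 0.15 and -0.19 ± 0.16. Neither probe of PSIP1, a chromatin-binding coactivator, was enriched on this accession, with 0.55 ± 0.16 and -0.03 ± 0.46, and the changes were 0.27 ± 0.22 and 0.02 ± 0.18. The study reported PSIP1 as enriched in EV cells of this line and showed the miR-155 sites on another PSIP1 isoform. These 2 probes are annotated to a different accession than that isoform. Whether they also read that isoform was not tested, since probe sequences were not used here.

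Of 35 genes commonly named as miR-155 targets, 12 were members. All probes were enriched in 5, beside 12.3% of all member transcripts, and some in 4, beside 12.2%. CEBPB, a transcription factor of inflammatory and myeloid genes, was the member whose probes were 4-fold apart, beside 2.12% of all transcripts. Its probe A_23_P411296 read 13.07 in EV T, 15.73 in EV IP, 13.34 in sponge T and 15.75 in sponge IP, and A_23_P143242 read 8.23, 8.30, 8.60 and 8.60. EV IP/T was 2.66 ± 0.07 by the first and 0.07 ± 0.24 by the second. SOCS1, a cytokine signalling inhibitor, was enriched by both, at 4.35 ± 0.19 and 3.07 ± 0.18, as was HBP1 at 3.77 ± 0.39 and 2.55 ± 0.44. The SMAD2 probes, on a mediator of TGF-beta signalling, lay between 0.92 and 1.00, and those of the transcription factor FOXO3 at 1.31 ± 0.01 and 1.22 ± 0.09. The change in IP/T was below 0 in every probe in 6, beside 23.8% of all, and above 0 in every probe in 3, beside 36.6%. The median change in IP/T of the 12 was -0.11 in arrays with IP in Cy5 and 0.003 in arrays with IP in Cy3.

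Genes of the microRNA machinery with several detected probes were AGO1, TNRC6B and DICER1. AGO1, a paralog of the precipitated protein, gave 0.70 ± 0.23 and 0.67 ± 0.06. DICER1, which cuts microRNA precursors, gave 2.68 ± 0.13 and 2.19 ± 0.10, and the 4 probes of TNRC6B, an Ago partner in silencing, lay between 0.74 and 1.52. Of the Hodgkin and B-lineage genes, IRF4 gave 1.25 ± 0.11 and 1.09 ± 0.10, and the actin-bundling gene FSCN1 gave -0.74 ± 0.32 and -0.68 ± 0.31. Both FSCN1 probes were higher in sponge IP, by 0.61 ± 0.09 and 0.57 ± 0.15, and nearly level in T, at 0.09 ± 0.20 and -0.05 ± 0.09.

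Immediate early genes had 5 members, and their probes ranged from the agreement of DUSP2 to the disagreement of IER5. JUNB gave 1.91 ± 0.04 and 0.87 ± 0.09, IER2 gave 0.90 ± 0.06 and 0.58 ± 0.23, and KLF6 gave 0.61 ± 0.05 and 0.40 ± 0.08.

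Ribosomal protein genes had 54 transcripts with a median range of 0.203 in EV IP/T, against 0.342 over all transcripts. None was 4-fold apart, beside 2.12% of all. With scaling to the 75th percentile that median was 0.346, against 0.351 over all, and in arrays of a single orientation it was 0.295 and 0.314, against 0.370 and 0.407. The median of their means was -0.49, below the -0.07 of all transcripts, and 47 had no enriched probe, beside 75.5% of all. RPL23 and RPLP1 each had 2 probes within 0.01, at 0.69 and 0.56. RPL22 stood at the far side, with 3.64 ± 0.14, 3.39 ± 0.29 and 2.33 ± 0.04. RPL13 and RPL7 had ranges of 1.08 and 1.01. The change in IP/T of the list had a median of 0.08, which turned to -0.002 with scaling to the 75th percentile and to -0.07 with normexp, and probes of these genes may also read their many processed copies.

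Zinc finger genes had 58 transcripts with a median range of 0.504. Of these 16 were 2-fold or more apart, beside 13.9% of all, and 2 were 4-fold or more apart, beside 2.12%. All probes were enriched in 19, beside 12.3%, and some in 9, beside 12.2%. ZNF160 had 1 probe at 2.50 ± 0.06 and 3 between -0.17 and 0.32, and ZNF575 gave -0.83 ± 0.33 and -3.48 ± 0.29. ZNF562 had a range of 1.80, while the probes of ZNF564, ZNF266 and ZNF219 lay within 0.04 of each other. The change in IP/T was below 0 in every probe in 28 of the 58, beside 23.8% of all, and above 0 in 8, beside 36.6%, with a median of -0.08 that was below 0 under both scaling alternatives. With Cy5 readings alone that median was -0.002. The median EV IP/T of the list was 0.68, against -0.07 over all transcripts, so these shares are not matched for enrichment.

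Genes named EIF or EEF, most of them translation factors, had 26 transcripts with a median range of 0.459. Of these EIF1AD was 4-fold apart, beside 2.12% of all transcripts. EIF4EBP2, an inhibitor of cap-dependent translation that the name pattern also takes in, gave 3.12 ± 0.34 and 1.31 ± 0.24, and EIF2S2 gave 0.30 ± 0.10 and -1.01 ± 0.03. EIF1, EIF4A2 and EEF1B2 had ranges of 0.03, 0.03 and 0.08. Rab GTPase genes had 24 transcripts with a median range of 0.525. RAB18 and RAB22A (2.56 ± 0.21 against 0.31 ± 0.16) were 4-fold apart, beside 2.12% of all transcripts. RAB39B had a range of 1.89, and RAB14, RAB10 and RAB29 ranges of at most 0.02. With normexp the median ranges of the zinc finger, EIF or EEF and Rab lists were 0.334, 0.304 and 0.347, against 0.268 over all transcripts.

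Proteasome genes had 13 transcripts with a median range of 0.218 ± 0.164, which was 0.400 in arrays with IP in Cy3. The members ran from PSMF1, PSME1 and PSMD9 at 1.26, 1.10 and 0.97 to PSME3, PSMB2 and PSMD12 at 0.04 or less. None was 4-fold apart, beside 2.12% of all member transcripts, and no transcript had all probes enriched, beside 12.3%. Mitochondrial ribosomal protein genes had 22 transcripts with a median mean of -0.85 and a median range of 0.287, the widest being MRPL57 at 0.69, MRPL53 at 0.51 and MRPL2 at 0.49. MRPS21, MRPL43 and MRPL34 had ranges of at most 0.03. Ubiquitin-conjugating enzyme genes had 16 transcripts with a median range of 0.504, with UBE2D3, UBE2Q1 and UBE2Z at 1.09, 0.76 and 0.71 and UBE2G1, UBE2F and UBE2H at 0.12, 0.20 and 0.26.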

How the data were processed

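RNA of the 4 groups was hybridised to 44K human two-colour arrays. The authors extracted spot intensity values with Agilent Feature Extraction (version 10.7.3.1 in the file headers, 10.5.1.1 in the submitters' processing notes), which subtracts background and corrects for dye. The 8 deposited files hold 4 distinct arrays, each deposited under both of its samples, and the channel of each sample's dye was taken. The authors' deposited table of log2 values, quantile normalised per the study's methods, served as an alternative. It holds 6773 of the 6988 member probes, and each column has the rank order of the matching channel (Spearman's rank correlation 1). Its scale is log2 with no centring of genes, since its medians (9.85 to 9.90) lie within 0.00363 of the values used here at the median probe.

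From the files, control and outlier-flagged spots were left out, spots of a probe were averaged, and log2 processed signals were quantile normalised over the 8 channels with limma 3.58.1 (R 4.3.3), following the study's methods. Cy3 and Cy5 were then averaged. The study's 2-fold dye filter was used only as an alternative. Ranges, correlations and counts were computed in Python 3.11.15 (numpy 2.4.6, pandas 2.3.3), and the code was tested on simulated data. With 1 RNA sample per group no test was made, and 4 arrays limit the precision.

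Members, gene lists and the rules for naming transcripts were chosen with earlier results of these data known. Named were the 15 transcripts with the widest EV range, the 2 on either side of a range of 2, the 5, 3 and 3 with the widest range in the change of IP/T, T and IP, the 6 highest and 4 lowest in mean EV IP/T with a range of at most 0.5, the 3 with the most probes, list members (of longer lists the 3 widest and 3 narrowest, with 1 of them not reported here) and the 3 highest and 3 lowest in T change with every probe past 0.5. Symbols came from the RefSeq table of GRCh38.p14, used for names only, which named 3012 of 3108 transcripts. Probe sequences and positions were not used here, so a planned comparison of 3′ with 5′ probes was not made. The array design in the file headers names an older genome build than that table, and no probe coordinates are printed. The list of other cell types had 0 member transcripts.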

Additional observations from a re-analysis of the deposited data

Results flagged for a closer look

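For 4 of the 283 probes of named transcripts, IP/T was above 0 in 1 cell population and below 0 in the other in both dye orientations. The difference was not tested, since each group holds 1 RNA sample. The rule was applied to these 283 probes only, so no share over all detected probes can be set beside the 4. A probe with an IP/T near 0 can meet it by a small shift. Probe A_24_P35891 of ZNF219 had an IP/T of 0.15 ± 0.07 in EV and -0.14 ± 0.05 in sponge cells, a change of -0.29 ± 0.02. For A_23_P58293 of UBE2D3 the values were -0.14 ± 0.03 and 0.17 ± 0.01, a change of 0.32 ± 0.02. A_24_P114124 of LAPTM5 gave -0.31 ± 0.20 and 0.14 ± 0.01, a change of 0.45 ± 0.18, and A_24_P125690 of MRPL34 gave -0.20 ± 0.26 and 0.05 ± 0.05, a change of 0.25 ± 0.20. The second probes of these transcripts changed by -0.18 ± 0.22 (ZNF219), -0.13 ± 0.15 (UBE2D3), 0.25 ± 0.24 (LAPTM5) and 0.18 ± 0.05 (MRPL34).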

How the results depend on the processing

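With normexp background correction (offset 50, on median signals, since mean signals were not used here), loess and Aquantile, 42 transcripts were 4-fold apart in EV and 46 in sponge IP/T, 0 were 2-fold apart in the change in IP/T, the median ranges were 0.268 and 0.127, the pairwise r 0.796 and 0.459 for EV IP/T and its change, and 10.5% of transcripts were split over enrichment. With detection in 4 of 8 channels these were 116, 152, 120, 0.403, 0.209, 0.794, 0.184 and 15.1%. Arrays with IP in Cy3 gave 113 transcripts 4-fold apart in sponge cells, 37 that were 2-fold apart in the change, median ranges of 0.407 and 0.232, r of 0.790 and 0.307 and 14.2% split. Arrays with IP in Cy5 gave 11 transcripts 2-fold apart in the change, a median EV range of 0.370 and r = 0.313 for the change. The authors' normalised values and the limit of 2-fold between Cy3 and Cy5 each left 1 transcript 2-fold apart in the change, and r for the change was 0.371 with the authors' values and 0.336 with 75th percentile scaling. The cause was not tested.

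With the Cy3 or the Cy5 reading alone, 75 to 80 transcripts were 4-fold apart in EV and 67 to 102 in sponge IP/T, 33 to 71 were 2-fold apart in the change, the median ranges were 0.340 to 0.370 and 0.204 to 0.241, r was 0.795 to 0.811 and 0.269 to 0.308, 11.8% to 13.6% of transcripts were split, and members numbered 3108 in each. No paired analysis was possible because the 2 replicates of a group are dye labellings of 1 RNA sample and no test was made. Of the 29 named transcripts 4-fold apart in EV cells, 18 stayed so with normexp, none turned, and the lowest difference there was 0.56. Only 23 of the 29 could be measured with the authors' normalised values, and 23 with the 2-fold limit between Cy3 and Cy5. All those measured stayed 4-fold apart. The comparison of 3′ with 5′ probes and the restriction to distant probes were not run, as probe positions were not used here. Among 1567 further values under the alternatives, 263 moved by more than the SD over orientations. A change of sign was counted only for called values, where there were 0, and not for medians of gene lists. Some list medians did change sign. The median change in IP/T of the commonly named miR-155 targets was -0.075, and 0.071 with Cy5 readings alone. For ribosomal protein genes it was 0.080, and -0.067 with normexp. Over all transcripts it was 0.0315, and -0.0217 with normexp. For the ST486 list it stayed below 0 under every alternative. The dye SD of the change in IP/T was 0.212 for a single orientation. Between probes of a transcript the SD was 0.169 for the average of both orientations, so these SDs are not directly comparable. Each group holds 1 RNA sample.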
